A study of Mus musculus with 12 samples.

Results

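The genes described here are the 1063 transcribed genes of mouse chromosomes 6 and 10 with a mean of at least 4 CPM (counts scaled to the library total, with no other normalisation) over 12 RNA-seq libraries. They comprise 545 genes of chromosome 6 and 518 of chromosome 10, out of 48795 genes in the table, 3108 of them on chromosome 6 and 1606 on chromosome 10. The Hoxa genes, Lum, Dcn, Mest, Peg10 and Plagl1 were left out by rule. The members were chosen by mean CPM, and their chromosomes were selected on the level of their genes in the knockout clone H7 against the parental line by position, so every H7 value below is a description and carries no test. On chromosome 6 the members nearest the threshold were Etfbkmt at 4.00 CPM, Gm37969 at 4.02 and Creld1 at 4.03, and the nearest genes outside it were Gm44068 at 3.97, Dcp1b at 3.86 and Gm43197 at 3.85. On chromosome 10 Rgs17 and E130317F20Rik at 4.01 CPM and Pcsk4 at 4.05 lay just inside, and Kif5a at 3.95, Hebp2 at 3.90 and Sobp at 3.84 lay just outside.

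The libraries hold ribosome-depleted total RNA of NIH3T3, an immortalised fibroblast line from mouse embryos, grown in DMEM/F12 with 10% fetal bovine serum. The parental line is labelled wild type and was sampled at passages 6, 7 and 8. Each of 3 Aebp1 knockout clones, F5, G5 and H7, was sampled at passages 7, 8 and 9, which gave 4 groups of 3 libraries. Knockout and clonal origin cannot be told apart within a clone. The labels do not say whether the clones, F5 and G5 among them, were derived independently of each other. Whether the passages were grown as separate cultures is not labelled either. The p-values therefore cover only the spread between these samples, and all comparisons with the parental line share its 3 libraries. RNA was extracted in bulk, so fewer cells expressing a gene and less RNA per cell cannot be told apart.

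As background, the amount of RNA made from a gene depends on its promoter, on the factors that act there and on how many copies of the gene the cell carries. NIH3T3 is known for an abnormal chromosome number that varies between sublines. A shift shared by genes along a whole chromosome is called here a whole-chromosome shift, and a shift that starts and stops between neighbouring genes a segmental shift. Copy number was not measured, and neither was its part in any value below.

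The largest differences between neighbouring groups of genes in H7 lay on chromosome 10, between Cabin1 and Ddt and between Ccdc59 and Ppp1r12a. Cabin1 encodes an inhibitor of calcineurin, Ddt encodes D-dopachrome tautomerase, a relative of the cytokine MIF, and Ppp1r12a encodes the targeting subunit of myosin phosphatase. The promoters of these 3 genes are shown because they stand beside the steps, and that of Btbd11, which encodes a BTB-domain protein, because it had no count in H7. The genes were chosen after their values were seen. Each line gives bases 250 to 51 before the RefSeq start on GRCm38.p6, read in the direction of the gene, with every CG dinucleotide in capitals. Cabin1 lies at chr10:75764408-75764607 and Ddt at chr10:75773425-75773624, both on the minus strand, with 12 and 9 CG. Ppp1r12a lies at chr10:108161848-108162047 and Btbd11 at chr10:85386564-85386763, both on the plus strand, with 22 and 6 CG.
Cabin1 promoter: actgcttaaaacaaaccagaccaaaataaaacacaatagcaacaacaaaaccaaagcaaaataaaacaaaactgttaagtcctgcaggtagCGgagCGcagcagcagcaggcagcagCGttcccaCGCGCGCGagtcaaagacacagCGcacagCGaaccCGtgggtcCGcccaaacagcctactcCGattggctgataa
Ddt promoter: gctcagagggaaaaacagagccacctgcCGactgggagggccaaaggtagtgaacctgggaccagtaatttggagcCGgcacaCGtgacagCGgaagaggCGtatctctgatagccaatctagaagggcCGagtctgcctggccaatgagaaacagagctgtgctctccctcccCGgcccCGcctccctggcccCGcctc
Ppp1r12a promoter: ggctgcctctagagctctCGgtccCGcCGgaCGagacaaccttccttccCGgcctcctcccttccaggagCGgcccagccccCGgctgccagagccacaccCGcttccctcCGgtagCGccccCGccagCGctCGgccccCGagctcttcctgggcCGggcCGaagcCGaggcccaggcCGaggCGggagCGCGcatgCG
Btbd11 promoter: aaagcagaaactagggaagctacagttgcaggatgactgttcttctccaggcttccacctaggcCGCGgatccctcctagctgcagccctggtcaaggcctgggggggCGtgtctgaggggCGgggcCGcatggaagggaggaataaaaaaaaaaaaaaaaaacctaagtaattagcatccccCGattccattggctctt

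All 4 windows held CG, and their G and C content was 50.0% for Cabin1, 61.5% for Ddt, 75.5% for Ppp1r12a and 53% for Btbd11. RefSeq promoters were found for 412 of the 545 chromosome 6 members and 436 of the 518 chromosome 10 members. Over the full 250 bases before the start, the median G and C content was 59.6% on chromosome 6 and 62.2% on chromosome 10, against 52.0% over 27025 promoters of the table. The letters CG, which read the same on both strands, occurred in 99.3% of member promoters on either chromosome and in 91.7% of all promoters. The members were filtered on expression and the 27025 promoters were not, so neither difference is read as a trait of these chromosomes. Within chromosome 10, the promoters of the 3 stretches that stood lowest in H7 (defined below) had a median of 62.0% (111 promoters) and those of the other stretches 62.4% (325 promoters).

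Library totals ran from 22088714 to 31329755 counts. Chromosome 6 members took 4.48% to 4.66% of the counts in the parental libraries, 4.74% to 5.03% in F5 and G5 and 3.92% to 4.00% in H7. Chromosome 10 members took 5.19% to 5.20%, 5.20% to 5.36% and 4.47% to 4.58%. The targeted gene Aebp1, on chromosome 11, was measured at 613, 467 and 579 CPM in the 3 parental libraries. The clone means were 193 ± 19.9 (F5), 128.3 ± 8.46 (G5) and 147 ± 14.4 CPM (H7; SD, n = 3), and every knockout library lay below every parental one. All 9 fibroblast markers were above 1 CPM in every library. The summed level of epithelial, endothelial, leukocyte and neural markers stayed at or below 9.51 CPM for each type. In each of these lists 1 marker was at 0 throughout, but 1 leukocyte marker was above 1 CPM in every library. The neural sum was 0.710 to 3.58 CPM in the parental line, 4.24 to 6.28 in F5, 4.17 to 7.25 in G5 and 4.38 to 9.51 in H7.

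Chromosome 6 stood lower in H7 along most of its length, less so in a short distal part described below (12 of 21 members below 0). The median log2 fold change of its 545 members against the parental line, from the edgeR fit on counts normalised by the trimmed mean of M-values (TMM), was −0.19, with the middle 50% of members between −0.36 and −0.02. That median corresponds to 87.5% of the parental level, and 430 of the 545 members lay below 0. In the same fit the 9781 genes of the other chromosomes at 4 CPM or more had a median of 0.014. The edgeR calls at an adjusted p under 0.05 are listed for completeness only, since this contrast chose the chromosome: 137 members lower and 27 higher, with 9.92% and 9.64% (19.6% together) among all 14704 genes tested, and nothing is read from them. Over all 14704 genes the median was −0.020.

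The 3 H7 libraries had a median log2 difference from the parental mean of −0.189, −0.163 and −0.160 over chromosome 6 members, while the parental libraries had −0.029, 0.012 and 0.014. F5 stood at 0.120, 0.0998 and 0.112, and G5 at 0.135, 0.107 and 0.132. Every H7 library thus lay below every parental library, and every F5 and G5 library above. Means were −0.17 ± 0.016 in H7, 0.11 ± 0.010 in F5 and 0.125 ± 0.015 in G5 (SD, n = 3). For F5 and for G5 against the parental line the exact two-sided permutation test gave p = 0.1, the smallest that 3 against 3 libraries allow, or 0.3 after Benjamini-Hochberg adjustment over 6 tests. The shift of chromosome 6 in F5 and G5 therefore could not pass a 0.05 threshold in this design.

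**Figure D1:**
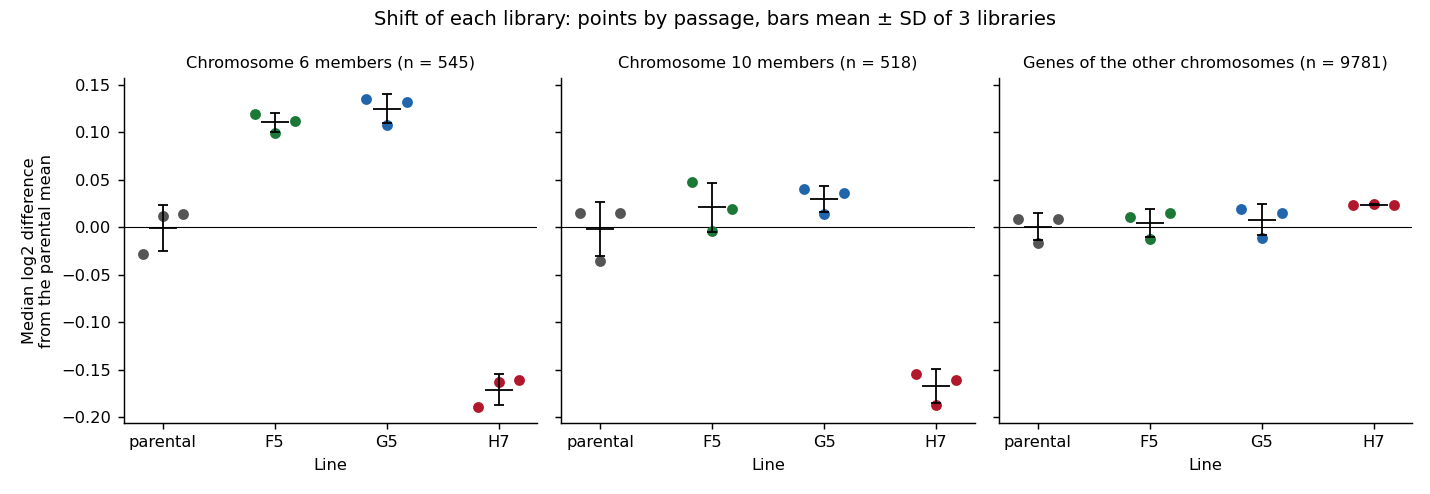
Median log2 difference from the parental mean over the members of chromosome 6, the members of chromosome 10 and the genes of the other chromosomes, with 1 point per library in 4 groups of 3 and bars for the mean ± SD. The H7 points lie below all others on chromosomes 6 and 10, at −0.189 to −0.160 on chromosome 6, and at 0.024 on the other chromosomes.

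For bins and distances between genes, the start is the lowest coordinate of the gene, whichever its strand. In bins of 10 Mb by gene start, all 14 bins of chromosome 6 with at least 10 members had a median below 0 in H7. The bin medians ran from −0.264 at 90 to 100 Mb to −0.076 at 70 to 80 Mb, a range of 0.188 that ranked 13 of 20 chromosomes from the widest. Against the mean of F5 and G5 they were closer together, from −0.331 to −0.232, with 488 of 545 members below 0. The largest difference between the members before and after a bin boundary was −0.089, at 20 Mb, and it was −0.034 without H7 passage 7 and −0.125 without parental passage 6. F5 and G5 medians varied along the chromosome by 0.232 and 0.227, more than in H7, and the bins at 0 to 20 Mb stood at 0.182 to 0.224 in these clones.

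A division of the members in gene order into stretches of unlike level, by penalised least squares with at least 10 members per stretch, was added after the values were seen and is also a description. It gave chromosome 6 a long stretch from Gm20559 to Rassf8, with 524 members over 142 Mb and a median of −0.20, and a short distal stretch from Bhlhe41 to Resf1, with 21 members and −0.05. The distal stretch was not separated in several alternatives given in the closing section. In F5 and G5 the chromosome formed 1 stretch.

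Chromosome 10 had nearly the same median in H7, −0.18 or 88.1% of the parental level, but its members were spread more widely. The middle 50% lay between −0.48 and 0.10, and 344 of 518 members were below 0. The calls, listed as for chromosome 6 with nothing read from them, were 168 lower and 50 higher. That is 32.4% and 9.65% of members, against 9.92% and 9.64% of all genes tested. The H7 libraries stood at −0.154, −0.187 and −0.161, apart from the parental libraries at 0.015, −0.035 and 0.015. F5 at 0.048, −0.003 and 0.019 and G5 at 0.040, 0.014 and 0.036 overlapped the parental range, with exact permutation p = 0.4 (0.48 adjusted) and 0.3 (0.45 adjusted). With these settings no shift of chromosome 10 in F5 or G5 was detected at the precision of 3 libraries. With no library left out, the unadjusted permutation p depended on the setting. In G5 it was 0.1, the smallest possible, in those alternatives that gave a p, other than 10 CPM or more (0.4) and another normalisation (0.2). Fits with a library left out are not counted here. The G5 difference was 0.0317 here and 0.0858 on log2(TPM + 0.1). In F5 the p was 0.1 with a trimmed mean, plain CPM and log2 TPM, and 0.3 to 0.5 otherwise. A p of 0.1 cannot pass a 0.05 threshold, so the question stays undecided.

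**Figure D2:**
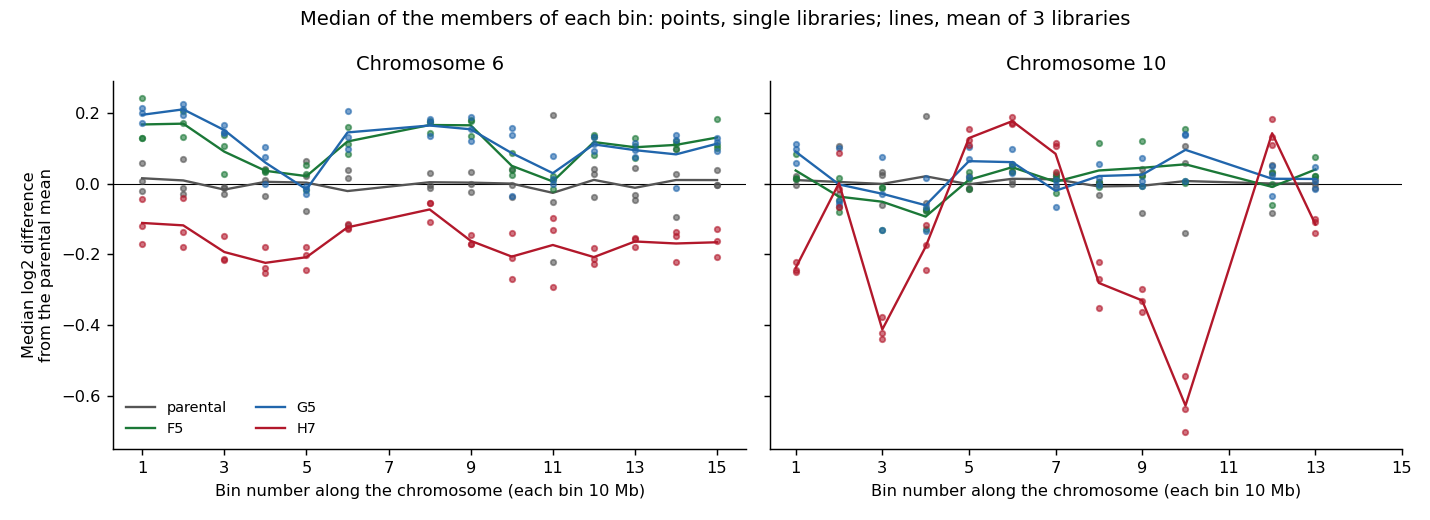
Median log2 difference from the parental mean over the members of each 10 Mb bin with at least 10 members, by bin number along chromosomes 6 and 10, with points for single libraries and lines for the mean of the 3 libraries of a group. The H7 points run from −0.293 to −0.040 on chromosome 6 and from −0.703 to 0.190 on chromosome 10.

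The bin medians of chromosome 10 in H7 covered 0.735, the widest range of the 20 chromosomes, followed by chromosome X at 0.415 and chromosome 1 at 0.368. In F5 and G5 the chromosome 10 range was 0.116 and 0.199, which ranked 20 and 13. The bin at 90 to 100 Mb was lowest, at −0.573, with all 28 members below 0. Bins at 40 to 50, 50 to 60 and 60 to 70 Mb stood at 0.093, 0.162 and 0.076, and the bin at 110 to 120 Mb at 0.128. Those at 20 to 30, 70 to 80 and 80 to 90 Mb stood at −0.429, −0.333 and −0.349. Lower and higher blocks thus alternated along the chromosome, and the range was 0.735, 0.874 and 0.808 in the 3 H7 libraries taken alone.

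Divided into stretches, chromosome 10 had 9 in H7 and 1 each in F5 and G5. The most on any other chromosome in H7 was 5, on chromosome 18. Stretches of low, intermediate and high median followed each other along the chromosome, and whether they share common levels was not tested. The stretches with the lowest medians were Enpp1 to 9330159F19Rik (12 members, median −0.72, or 60.5% of the parental level), Ddt to Gm10146 (29 members, −0.75, 59.5%) and Celf5 to Ccdc59 (89 members, −0.58, 66.7%). The highest were Tube1 to Cabin1 (119 members, 0.10, 107%) and Ppp1r12a to Shmt2 (66 members, 0.11, 108%). Between them lay Mthfd1l to Ccn2 (56 members, −0.14), Echdc1 to Lama4 (20 members, −0.23), Rrp1 to Nfic (84 members, −0.18) and Lrp1 to Gm9770 (43 members, −0.27).

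**Figure D3:**
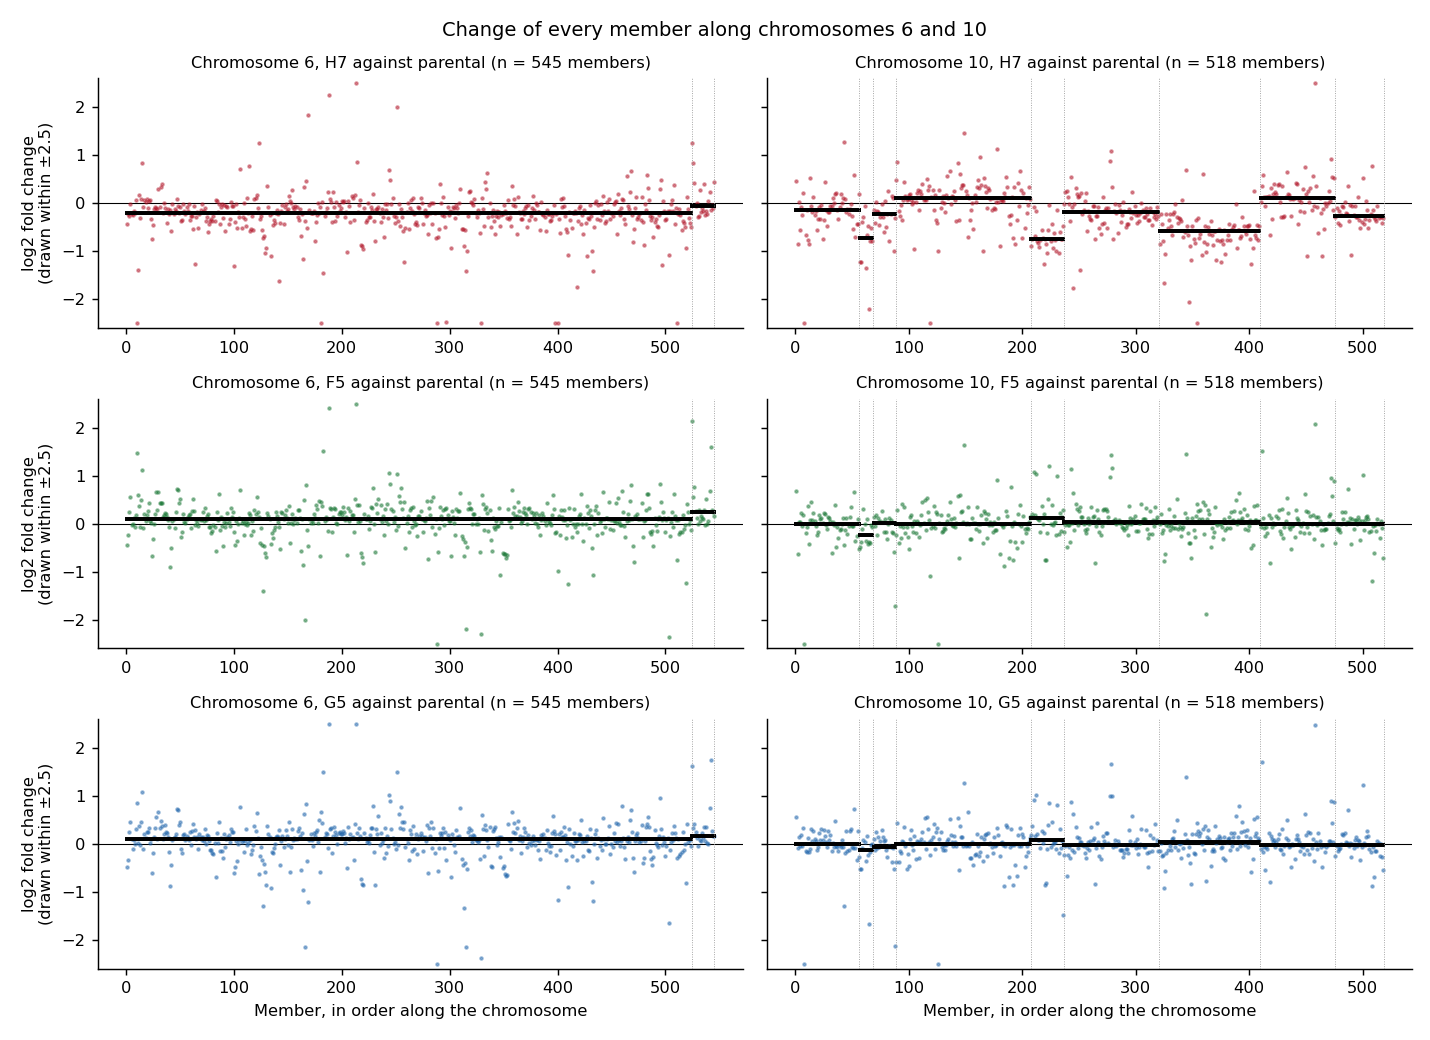
Log2 fold change of each member against the parental line in F5, G5 and H7, in gene order along chromosomes 6 and 10, drawn within ±2.5, with the median over each H7 stretch as a black line in all panels. In H7 chromosome 6 is a long stretch at −0.20 with a short distal one, and chromosome 10 is divided into 9 stretches with medians from −0.75 to 0.11.

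The 3 lowest stretches held 130 members over 31.6 Mb, of which 126 lay below 0 and 85 between −1 and −0.4. Only Chst11, Aldh1l2, Timp3 and Kitl did not lie below 0. Over all chromosome 10 members 66.4% lay below 0. These stretches were cut and picked on the same H7 values, so their counts follow in large part from the choice. The H7 libraries had medians of −0.695, −0.745 and −0.739 from Ddt to Gm10146 and of −0.572, −0.595 and −0.605 from Celf5 to Ccdc59, so they differed little from library to library. The same stretches stood at 0.11 and 0.02 in F5 and at 0.09 and 0.05 in G5. The short stretch from Enpp1 to 9330159F19Rik stood at −0.24 in F5 and −0.12 in G5, with 0 of its 12 members called in either. Taken singly, the H7 libraries gave 7, 9 and 6 stretches on chromosome 10, and placed 5, 7 and 4 of the 8 boundaries within 3 members of those above. Against the mean of F5 and G5 there were again 9 stretches, but 3 of the 8 boundaries recurred, and a charge of 5 per stretch in place of 3 gave 6 stretches. The stretch from Enpp1 to 9330159F19Rik was separated in H7 passage 8 alone, and not in passages 7 and 9 or against F5 and G5, so its limits are the least certain. The boundary at Ddt recurred in each H7 library and against F5 and G5.

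The division puts every step between adjacent members, so that steps are short in gene order is set by the method. The boundaries were placed on the same H7 values, so the difference between the members beside them is a description only. From Cabin1 to Ddt the stretch median changed by −0.85 across 0.125 Mb between the lowest coordinates of the genes. Both lie on the minus strand, so these coordinates are not their transcription starts. The highest coordinate of Cabin1 is 75764341 and the lowest of Ddt 75771230, so the genes themselves lie closer together. The 6 members before this step stood in H7 at 69.8% to 125% of their parental mean, with a median of 102%, and the 6 after it at 54.1% to 95.2%, with a median of 61.0%. Cabin1 stood at 126, 132 and 139 CPM in the parental line and at 135, 147 and 140 CPM in H7. Ddt stood at 6.13, 8.01 and 6.28 CPM and at 3.5, 4.16 and 3.38 CPM. The H7 and parental libraries overlapped for Cabin1 and did not for Ddt, 2 neighbours whose promoters are printed above. Mif, the cytokine gene beside Ddt, and Mmp11, a matrix metalloproteinase gene, stood at 95.2% and 89.4% in H7 and at 212% and 204% in F5, so they too were lower in H7 than in F5 although near the parental level.

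At the distal end of the last low stretch, the 6 members up to Ccdc59 stood at 59.1% to 119% of the parental mean in H7, with a median of 67.5%, and the 6 from Ppp1r12a on at 96.2% to 150%, with a median of 109%. Ccdc59 stood at 22.5, 20.4 and 20.3 CPM in the parental line and 15.0, 15.0 and 15.2 CPM in H7. Ppp1r12a stood at 105, 115 and 103 CPM and at 111, 108 and 111 CPM. The groups were apart for Ccdc59 and overlapped for Ppp1r12a, whose lowest coordinates lie 2.32 Mb apart with no other member between. Pawr, a pro-apoptotic gene in the higher group, stood at 128% in H7, 284% in F5 and 328% in G5.

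**Figure D4:**
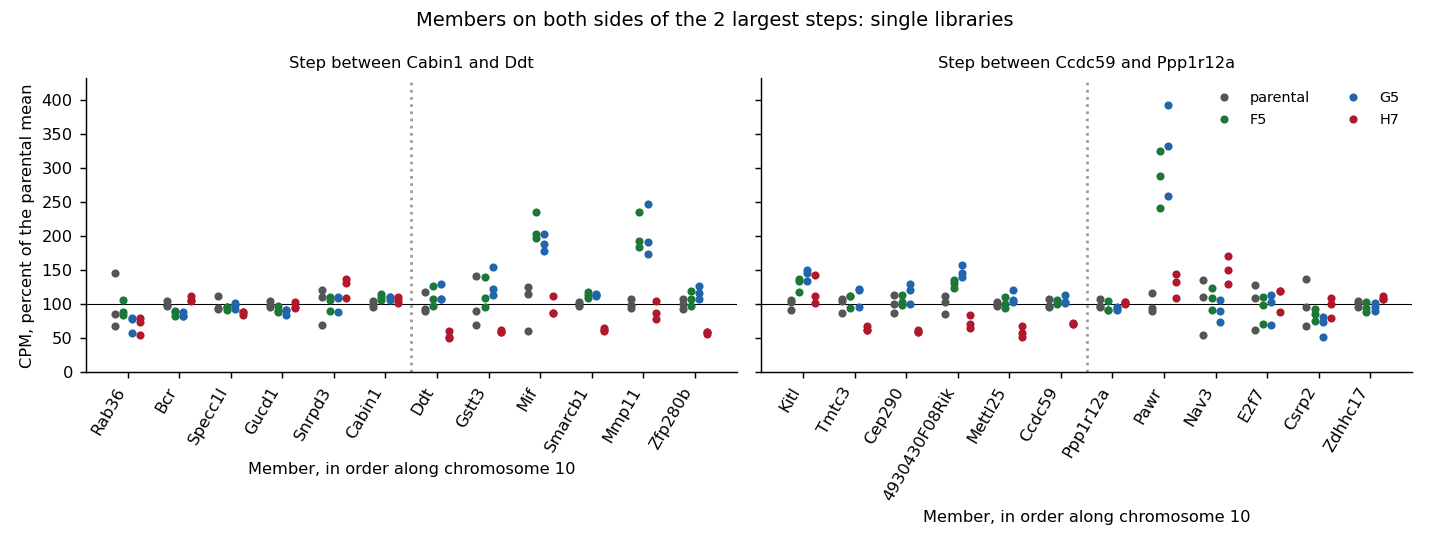
Level of the 6 members on each side of the steps between Cabin1 and Ddt and between Ccdc59 and Ppp1r12a, as percent of the parental mean CPM, with 1 point per library of the parental line, F5, G5 and H7. The median over members of the H7 mean goes from 102% to 61.0% at the first step and from 67.5% to 109% at the second.

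Members of the low stretches that are abundant in these cells differed among themselves. Hsp90b1, which encodes an endoplasmic reticulum chaperone, stood at 838, 744 and 953 CPM in the parental line, at 706 to 755 in F5, 713 to 823 in G5, and at 428, 485 and 525 CPM in H7. Slc25a3, the mitochondrial phosphate carrier, stood at 520, 486 and 576 CPM in the parental line and 368, 366 and 340 CPM in H7. Tmpo, which encodes a nuclear lamina protein, stood at 299, 221 and 301 CPM and at 161, 157 and 166 CPM. In all 3, each H7 library lay below each library of the other groups, at 56.7%, 67.9% and 58.9% of the parental mean. Lss, the sterol enzyme lanosterol synthase, stood at 109, 110 and 104 CPM in the parental line, 117 to 135 in F5 and G5, and 38.2, 48.3 and 46.9 CPM in H7, or 41.3%. Nuak1, a kinase related to AMPK, stood at 107, 98.9 and 119 CPM in the parental line and 26.4, 26.7 and 25.2 CPM in H7, or 24.1%. Both lay below the median of their stretch, whereas Pfkl (−0.13), Txnrd1 (−0.34) and Timp3 (0.62 on the log2 scale) lay above it.

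In the higher stretches, Cd164, a sialomucin gene, stood at 220, 232 and 217 CPM in the parental line and 265, 250 and 256 CPM in H7. Hk1, a hexokinase, stood at 75.1, 62.6 and 69.8 CPM and at 101, 94.9 and 100.0 CPM in H7. Neither pair of groups overlapped. Not every member of a higher stretch was higher: Cd24a, which encodes a small surface glycoprotein, stood at 64.1, 195 and 93.4 CPM in the parental line and at 6.37, 16.9 and 12.7 CPM in H7.

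Abundant members of chromosome 6 differed in H7 in size and direction. Smo, the Hedgehog signal transducer, stood at 245, 227 and 235 CPM in the parental line, 211 to 238 in F5 and G5, and 179, 160 and 159 CPM in H7, or 70.3%. Wnk1, a kinase that controls ion transport, stood at 601, 575 and 562 CPM in the parental line, 653 to 727 in F5 and G5, and 498, 498 and 507 CPM in H7. For both genes the H7 libraries were the 3 lowest. Col1a2, a chain of type I collagen, stood at 5443, 6288 and 4991 CPM in the parental line and 4492, 4593 and 4927 CPM in H7, a log2 fold change of −0.26. Cav1, which encodes the caveolar coat protein caveolin-1, stood at 0.40 on that scale, against the direction of the chromosome median of −0.19.

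A few members stood far outside the level of their chromosome. Zfp422, a zinc-finger gene at 116624016 to 116628999 on chromosome 6, had 490 counts over the parental libraries, 513 over F5, 608 over G5 and 0 over H7. Btbd11, at 85386814 to 85660292 on chromosome 10, had 1075, 1688, 1557 and 0. With a limit of 3 counts over the summed H7 libraries (0.0379 CPM, counting error only), Zfp422 was at least 184-fold lower and Btbd11 at least 403-fold lower than in the parental line. The 3 members on each side of Btbd11 had log2 fold changes between −0.83 and −0.31 in H7, and those beside Zfp422 between −0.32 and −0.04 apart from Cxcl12 at −3.76. The nearest member starts, 255 kb from that of Btbd11 and 55.0 kb from that of Zfp422, thus belonged to genes that were transcribed in H7.

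Cxcl12, the chemokine ligand of CXCR4, stood at 23.6, 68.3 and 17.7 CPM in the parental line, 15.8 to 22.3 in F5 and G5 and 1.91, 3.31 and 2.87 CPM in H7, or 7.38% of the parental mean. Asb4, an ankyrin-repeat ubiquitin ligase subunit, stood at 14.9, 34.5 and 20.4 CPM in the parental line, 54.7, 70.0 and 69.0 in F5, 31.5, 45.3 and 50.5 in G5, and 0.716, 0.884 and 0.669 CPM in H7. H1fx, a linker histone gene, stood at 10.6, 12.3 and 11.2 CPM in the parental line and 2.27, 2.36 and 1.49 CPM in H7. Against the direction of its chromosome, Aqp1, a water channel, stood at 22.9, 41.4 and 25.2 CPM in the parental line, 13.6 to 25.7 in F5, 10.4 to 15.0 in G5 and 123, 91.1 and 107 CPM in H7. The H7 libraries of these 4 genes did not overlap the parental libraries. The genes are described because they stood far from their chromosome in H7, so this follows in part from the choice.

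F5 and G5 were compared with the parental line as clones whose difference from it did not choose the chromosomes. Their libraries did enter the mean CPM that set the members, and the parental libraries are those used to choose the chromosomes in H7. On chromosome 6, 77 members rose and 28 fell in F5, and 79 rose and 28 fell in G5, by edgeR's quasi-likelihood test at a Benjamini-Hochberg adjusted p under 0.05. That is 14.1% and 5.14% of members in F5, where 6.88% of all genes rose and 7.37% fell, and 14.5% and 5.14% in G5, where 6.54% rose and 6.56% fell. On chromosome 10, 42 rose and 24 fell in F5 and 43 rose and 23 fell in G5, with median log2 fold changes of 0.009 and 0.001. The totals of 171 and 173 members depended on the model. A fit on only the 6 libraries of a comparison called 71 in F5 and 53 in G5. Adding the place of the passage in its line (first, middle or last) as a block, chosen after the data were seen, called 365 and 355, and 4226 and 3948 of all genes against 2096 and 1926. Leaving out F5 passage 7 or 9 gave 107 or 110 members in F5, and leaving out a G5 library 100 to 106 in G5.

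The chromosome 6 members with the smallest adjusted p rose in both clones. Mdfic, which encodes an inhibitor of MyoD-family factors, stood at 40.7, 39.4 and 39.0 CPM in the parental line, 62.7, 63.9 and 61.7 in F5, 62.5, 66.2 and 60.8 in G5 and 50.6, 47.3 and 48.7 in H7. It rose by 0.66 on the log2 scale in F5 (SE 0.06, adjusted p = 7.69e-05) and by 0.67 in G5 (SE 0.06, adjusted p = 5.95e-05). Paip2b, a regulator of translation, stood at 48.5, 44.8 and 44.9 CPM in the parental line, 70.7 to 80.6 in F5, 74.1 to 83.3 in G5 and 42.1 to 42.9 in H7, with 0.74 (adjusted p = 0.000135) and 0.78 (adjusted p = 7.93e-05). Exoc4, an exocyst subunit, rose by 0.62 (adjusted p = 0.00021) and 0.46 (adjusted p = 0.000984), while H7 stood at −0.01. These 3 genes were above the parental range in every F5 and G5 library.

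Gadd45a, a stress-induced growth-arrest gene, stood at 3.22, 1.93 and 3.03 CPM in the parental line and rose to 11.1 to 18 CPM in F5 (log2 fold change 2.40, adjusted p = 0.00021) and 13.0 to 19.6 in G5 (2.53, adjusted p = 0.000131), with 10.8 to 14.8 CPM in H7. Ccnd2, cyclin D2, rose from 328, 318 and 295 CPM to 499 to 592 in F5 (0.80, adjusted p = 0.000235) and 478 to 550 in G5 (0.72, adjusted p = 0.000403), and stood at 467 to 522 CPM in H7. In these genes all clones lay above the parental libraries.

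On chromosome 10, Vip, a neuropeptide gene, stood at 18.2, 13.2 and 15.5 CPM in the parental line and fell to 0 to 0.345 CPM in F5 (log2 fold change −6.09, SE 0.56, adjusted p = 0.000105) and 0.159 to 0.68 in G5 (−5.27, SE 0.53, adjusted p = 0.000146), with 0.358 to 0.958 in H7. Grik2, a glutamate receptor subunit, stood at 31.1, 41.2 and 47.7 CPM and fell to 4.90 to 8.41 in F5 (−2.57, adjusted p = 9.71e-05) and 4.28 to 7.21 in G5 (−2.74, adjusted p = 6.04e-05), and stood at 18.2 to 22.1 in H7. Ddit4, an inhibitor of mTORC1 signalling, stood at 21.4, 20.2 and 27.8 CPM and rose to 65.0 to 78.6 in F5 (1.63, adjusted p = 4.05e-05) and 48.9 to 60 in G5 (1.27, adjusted p = 0.000166). None of these genes overlapped the parental libraries in any clone.

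Between F5 and G5, 0 of the 1063 members were called by edgeR, where 0.258% of all genes were (0.19% higher and 0.068% lower in F5), and 32 had an unadjusted p under 0.05, 16 on each chromosome. Over all genes the calls numbered 38, or 21 with the passage number as a replicate block. The block by place called 4 members and 82 genes. DESeq2 called 2 members. The mean library median of F5 minus that of G5 was −0.0146 on chromosome 6 and −0.0089 on chromosome 10, and the exact permutation test gave p = 0.3 and p = 0.7, or 0.45 and 0.7 adjusted.

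The members were also read by function, from 10 lists. Beside the counts below, 6.88% of all genes rose and 7.37% fell in F5, 6.54% and 6.56% in G5, and 78.9% of all chromosome 6 members and 66.4% of all chromosome 10 members lay below 0 in H7. With so few members per list, nothing is called particular to a list. Glycolysis had 5 members on chromosome 6 (Hk2, Eno2, Tpi1, Gapdh and Ldhb), of which 3 rose in F5 and 2 in G5, with median log2 fold changes of 0.54 and 0.41 against −0.007 and −0.010 over all genes tested. In H7 the median was 0.16. Tpi1, triosephosphate isomerase, stood at 360, 315 and 353 CPM in the parental line, 524 to 567 in F5 (0.66, adjusted p = 0.000287), 479 to 533 in G5 (0.55, adjusted p = 0.00077) and 371 to 398 in H7. On chromosome 10, Pfkl, the liver-type phosphofructokinase in the stretch from Ddt to Gm10146, rose from 121, 76.5 and 90.5 CPM to 180 to 213 in F5 (1.00, adjusted p = 0.00234) and 149 to 196 in G5 (0.82, adjusted p = 0.00725), and stood at 80.1 to 97.1 CPM in H7, within the parental range.

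The list of collagens, matrix and secreted factors had 9 members on chromosome 10 (Ccn2, Lama2, Lama4, Col6a2, Col6a1, Col18a1, Timp3, Igf1 and Kitl). In F5 and in G5, 3 of them fell and 1 rose, with medians of −0.53 and −0.77, and the H7 median was −0.31. Col6a1, a chain of type VI collagen, stood at 1379, 1757 and 1489 CPM in the parental line, 880 to 922 in F5 (−0.77, adjusted p = 0.000698), 859 to 910 in G5 (−0.81, adjusted p = 0.000485) and 761, 854 and 941 in H7 (−0.86). Its neighbour Col6a2 stood at 1027, 1236 and 1129 CPM, 632 to 701 in F5 (−0.77, adjusted p = 0.000648), 593 to 659 in G5 (−0.86, adjusted p = 0.00031) and 593, 673 and 749 in H7 (−0.75). Both genes lie in the stretch from Ddt to Gm10146, whose median was below 0 in H7 and above 0 in F5 and G5, but both stood below the parental libraries in all 3 clones. On chromosome 6 the list held Col1a2, Calu, Ptn, Fbln2, Cxcl12 and Mgp, with a median of −0.68 in H7 and 6 of 6 below 0, from −0.26 in Col1a2, Calu at −0.27 and Fbln2 at −0.26 to Ptn, a secreted growth factor, at −1.30 and Cxcl12 at −3.76.

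Of the 5 stress, p53 and apoptosis genes of chromosome 6, 3 rose in F5 and 3 in G5, with medians of 0.71 and 0.66, and the H7 median was 0.35. On chromosome 10 the list's 12 members had medians of −0.02, 0.02 and −0.38 in F5, G5 and H7, with 3 rising and 2 falling in F5 and 3 rising in G5. Protein synthesis, folding and export had 12 members on chromosome 10, of which 5 rose in F5, 4 rose in G5 and none fell, with medians of 0.24 and 0.23, and 0.08 in H7. Receptors, kinases and small GTPases had H7 medians of −0.47 on chromosome 6, with 8 of 9 members below 0, and −0.26 on chromosome 10, with 7 of 10. Cell cycle members had −0.17 and −0.03, with 7 of 8 and 5 of 9 below 0. These shares lay near those of all members of the same chromosome. Respiratory chain members had H7 medians of −0.02 and −0.04, sterol, lipid and redox members −0.05 and −0.19, cytoskeletal members −0.02 and −0.38, and chromatin and RNA-binding proteins −0.10 and −0.18.

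The H7 medians were also read by other properties of the genes. Split into 3 groups by mean CPM, chromosome 6 members had medians of −0.23, −0.18 and −0.16 from the lowest to the highest level, and genes on the plus and minus strands had −0.20 and −0.19. The 63 members of chromosome 6 not annotated as protein coding stood at −0.27 and the 482 protein-coding ones at −0.18. On chromosome 10 the groups by level stood at −0.27, −0.19 and −0.11, the strands at −0.19 and −0.18, and the 12 members not annotated as protein coding at −0.39 against −0.18 for the 506 coding ones.

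Across all chromosomes in H7, chromosome 6 had the lowest median and chromosome 10 the next lowest, followed by chromosomes 2 and 1 at −0.11 each. At the other end, chromosome 15 stood at 0.47, chromosome 18 at 0.28 and chromosome 16 at 0.24. In F5 and G5 chromosome 6 had the highest median of the 20.

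**Figure D5:**
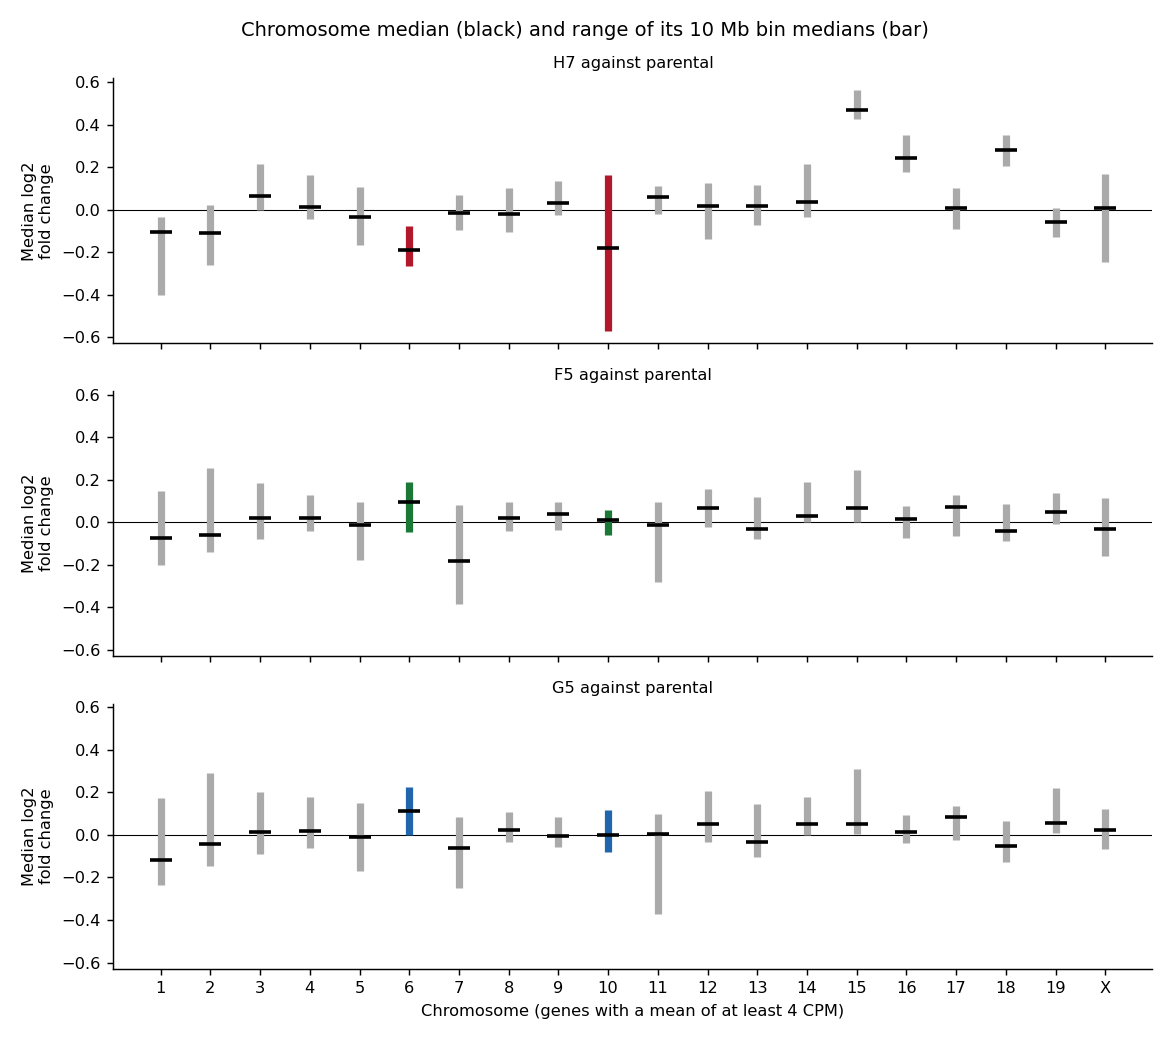
Median log2 fold change against the parental line for the genes of each chromosome at a mean of at least 4 CPM (black line), with the range of its 10 Mb bin medians (bar), in H7, F5 and G5. Chromosomes 6 and 10 have the lowest medians in H7, at −0.19 and −0.18, and chromosome 15 the highest, at 0.47.

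Passage was tested within the lines in the same libraries. With the place of the passage in its line as a linear term, edgeR called 13 members (9 on chromosome 6 and 4 on chromosome 10), where 1.12% of all genes were called. Of these members 10 rose and 3 fell, against 0.741% and 0.374% of all genes. The count was not stable: it was 29 without a filter on low counts, 134 without parental passage 7, 42 without parental passage 8, and 0 without F5 passage 9, G5 passage 7 or G5 passage 9. A term for the middle passage against the outer ones called 424 members, 38.5% of those on chromosome 6 and 41.3% of those on chromosome 10, against 37.7% of the other genes at 4 CPM or more and 32.1% of all genes tested. On chromosome 6, 109 were higher and 101 lower at the middle passage, and on chromosome 10, 99 and 115, against 16.5% and 15.6% of all genes.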

How the data were processed

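Estimated counts per Ensembl gene were deposited in a table, and a second deposited table gives TPM for the same genes. Per the submitters' processing notes the build is GRCm38. Not given in the sources used here are the aligner, counter, annotation release and use of strand, so overlapping, antisense and near-identical genes are uncertain. All deposited counts were rounded, and 86.9% of those over 0.5 were whole to within 0.01. Symbols and positions came from GENCODE M21 and sequences from RefSeq (GRCm38.p6).

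The tests used edgeR 4.0.16 in R 4.3.3 (quasi-likelihood F-test, TMM factors, filterByExpr, group as the only term, 12 libraries, 8 residual degrees of freedom) on 14704 genes, with Benjamini-Hochberg adjustment over all of them and calls at an adjusted p under 0.05. All 1063 members passed the filter. The biological coefficient of variation was 15.5%. Library medians used log2 CPM with a prior count of 2. limma 3.58.1 on log2(TPM + a pseudocount) and DESeq2 1.42.0 were alternatives, as were other normalisations, filters, bin sizes, the replicate block and each library left out. Totals per library were 22088714 to 31329755 counts. The tests were run on simulated counts first.

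The members, lists and rules were chosen with earlier results of these data known. Genes were named by rule: the highest coding member per bin, the 5 highest and 5 lowest in H7 per chromosome, up to 4 per list by level, the 3 smallest adjusted p per comparison of F5 and G5, and those at the threshold. Cabin1, Ddt, Ccdc59, Ppp1r12a, Lss, Cd24a, the members beside steps and those beside genes at 0 were named after their values were seen. Same-numbered libraries of the clones deviated together (9 pairs, r 0.275 to 0.757), those of clones and parental line did not (6 pairs, −0.709 to −0.352). The replicate block is the passage number, and the parental line shares some of its numbers with the clones. It thus also joins parental and clone libraries that deviated in opposite directions, which limits its values against the parental line. Clone and parental libraries at the same place in their line (first, middle or last) also deviated together (9 pairs, 0.0228 to 0.675), so a fit with place as a block was added after the data were seen.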

Additional observations from a re-analysis of the deposited data

Results flagged for a closer look

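The library medians of some chromosomes and stretches stood on opposite sides of the parental mean in H7 and in another clone, in every library. H7 was not tested against F5 or against G5, and no p is given for H7 here, since its libraries chose the chromosomes. Over chromosome 6 members the mean library median of H7 minus that of F5 was −0.28 and of H7 minus G5 −0.30. Over chromosome 10 members H7 minus G5 was −0.20, from Mthfd1l to Ccn2 −0.19 and from Celf5 to Ccdc59 −0.66. From Ddt to Gm10146 the difference was −0.84 against F5 and −0.84 against G5.

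A few single genes were called in opposite directions against the shared parental libraries, and the difference between the clones was likewise not tested. The H7 calls serve here only to list the genes, and nothing is read from them, since that contrast chose the chromosomes. The log2 fold changes of H7 minus F5 were −6.40 for Asb4, −1.05 for Flnc, a filamin gene, and −0.51 for Wnk1. Those of H7 minus G5 were −0.79 for Hipk2, a kinase gene, 3.04 for Aqp1, −0.44 for Wnk1 and −12.04 for Btbd11. The Btbd11 value is fitted to a group with 0 counts, depends on the prior count and is no bound. Several of these calls against the parental line had an adjusted p close to the threshold and were lost when some libraries were left out, 12 libraries being left out in turn. The call of Btbd11 in G5 was lost in 8 such fits, of Wnk1 in H7 in 4 and in G5 in 3, of Hipk2 in G5 in 3, of Flnc in F5 in 3 and in H7 in 2, and of Aqp1 in G5 in 1 fit. The call of Asb4 in F5 was lost in 0.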

How the results depend on the processing

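Besides leaving out libraries, 168 of 204 recomputed summary values were classed as unchanged, a class that did not closely limit the size of a change. The chromosome 10 value of G5 was 0.0317 and became 0.0858 on log2(TPM + 0.1), and was still classed as unchanged. So were the 564 members called in H7 with a block by place in the line (main 382). Fits on 6 libraries called fewer members, 71 in F5, 53 in G5 and 217 in H7 (main 171, 173 and 382), and 767, 581, 1561 and 19 genes in all (2096, 1926, 2877 and 38 for F5, G5, H7 and F5 against G5). F5 against G5 gave 2 members and 102 genes with DESeq2, 23 genes on log2(TPM + 1) and 21 with the replicate block. A block by place in the line called more: 365 members and 4226 genes in F5, 355 and 3948 in G5, 4808 genes in H7, and 4 members and 82 genes in F5 against G5. The passage order gave 29 members without a filter. The chromosome 6 value of H7 (−0.17) was −0.198 with plain CPM, −0.194 centred on other autosomes and −0.214 with the replicate block. The chromosome 10 value (−0.165) was −0.142 at 10 CPM or more, −0.193 with plain CPM and −0.189 centred. F5 against G5 turned to 0.0037 with a trimmed mean on chromosome 6 and to 0.0014 with the replicate block on chromosome 10. The bin range was 0.438 on chromosome 6 with 5 Mb bins, and on chromosome 10 it was 0.955 with 5 Mb bins, 0.577 with 20 Mb bins and 0.841 with a trimmed mean. The chromosome 10 step (−0.271) was −0.212 with 20 Mb bins and −0.225 with a trimmed mean. Chromosome 6 had 1 stretch at a charge of 5, at 10 CPM or more and against F5 and G5. The stretch settings and the block by place were chosen after seeing the data. The cause was not tested.

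Leaving out each library gave 107 to 182 members called in F5, 100 to 176 in G5, 260 to 378 in H7 and 0 to 1 in F5 against G5, and 1226 to 2142, 1128 to 2044, 1823 to 2822 and 22 to 57 genes. Passage order gave 0 to 134 members and the middle passage 304 to 438. Chromosome 6 values were 0.097 to 0.121 in F5, 0.109 to 0.135 in G5, −0.193 to −0.161 in H7 and −0.0234 to −0.0019 between F5 and G5. Chromosome 10 values were −0.0028 to 0.0366 in F5, the low end without parental passage 7, 0.0066 to 0.0395 in G5, −0.172 to −0.156 in H7 and −0.0222 to 0.0051 between F5 and G5. Bin ranges were 0.159 to 0.221 and 0.734 to 0.850, steps −0.125 to −0.034 and −0.271 to −0.251, and stretches 1 to 2 and 7 to 9, on chromosomes 6 and 10.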
